A study of Hordeum vulgare with 10 samples.

Results

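Barley (*Hordeum vulgare* cv Golden Promise) root pieces treated with the pure fungal sterol ergosterol were compared directly with root pieces treated with a lipid extract of *Serendipita indica*, a root-colonizing fungus, at 2 h post treatment (2 hpt). The comparison took 7 of the 10 libraries of the series, 3 from ergosterol treatment (Erg 1 to 3) and 4 from *S. indica* lipid treatment (SiLipids 1 to 4), and the 18274 of 37962 transcripts that averaged 1 TPM or more over these 7 libraries (TPM being a transcript's share of a library after correction for its length). The remaining 3 libraries came from the solvent control (SC 1 to 3) and are given as background for many of the values, but not for all. Roots of 7-d-old seedlings were cut into 5 mm pieces, the part near the seed and the root tips being left out. Each well held 24 pieces, which recovered overnight in buffer before treatment, and each replicate pooled 2 wells. Final treatments were 250 nM ergosterol, extract at 1 : 160 (v/v) or solvent alone, and methanol was present at 1 : 40 (v/v) in all 3 groups. The ergosterol content of the diluted extract is not given in the sources used here, so the amounts of sterol in the 2 treatments cannot be told to be equal. Each value thus compares these preparations at these doses.

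Fungi build their membranes mainly with ergosterol, whereas plants use sitosterol, stigmasterol and related sterols, and roots can sense the fungal sterol as a microbe-associated molecular pattern. A whole lipid extract can hold phospholipids, storage lipids and other sterols beside it. Sensing of such patterns is known to start calcium and kinase signalling and to raise transcripts for defence proteins, phenolic amides and terpenoids, while transcripts for growth and cell wall extension often fall.

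Since TPM sum to 1000000 in each library, read totals are lost, the depth is unknown and error can be judged only from the spread between libraries. Between 18004 and 18410 transcripts reached 1 TPM in a treated library. Pearson's *r* of log2(TPM + 1) between treated libraries lay between 0.967 and 0.982. The largest component of variation among the 7 libraries, with 27.1% of the variance, did not part the treatments, since SiLipids 4 lay at 15.4 between Erg 3 at 15.3 and Erg 1 at 28.7, and the other SiLipids libraries lay at −32.2 to −3.1 with Erg 2 at −6.6. SiLipids 4 thus lay among ergosterol libraries on this component. List and description medians are also given without SiLipids 4, as are single transcripts where that library changed the reading. Leaving out an extract library that resembles ergosterol can by itself enlarge a lean to the extract, so these values are no neutral check. SiLipids 3 lay farthest out on this component, at −32.2. Its median *r* to the other treated libraries was 0.974, beside 0.976 for SiLipids 4. Of the tissue lists, 3 of 16 transcripts of photosynthesis were abundant enough to test, with a summed level of 15.5 to 25.1 TPM, as were 110 of 197 of cell division, 1 of 6 of root hairs, 26 of 45 of the Casparian strip and 4 of 4 of phloem. In whole pieces, fewer cells of a type and less RNA per cell cannot be told apart. Nothing in the labels says whether replicates came from separate batches of plants, so *p*-values cover the spread between these libraries only.

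Differences are means of log2(TPM + 1) upon ergosterol minus those upon *S. indica* lipids, so that positive values are higher upon ergosterol, and SE is the standard error from limma. Identifiers are given without their shared prefix HORVU.MOREX.r3.

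Differences between the 2 treatments were small beside the spread between libraries. Under the joint limits of 0.05 on the adjusted *p* (limma, Benjamini-Hochberg over all transcripts) and 1 on the size of the log2 difference, 0 of 18274 transcripts were called (0%). The adjusted *p* alone was passed by 1 transcript, 0.00547% of those tested. An unadjusted *p* under 0.05 was reached by 967 transcripts, 5.29% of all, where 913.7 are expected by chance. Of these, 291 (1.59%) were higher upon ergosterol and 676 (3.7%) upon *S. indica* lipids, so that 30.1% leaned to ergosterol. That split depended on the scaling of the libraries: with median-ratio scaling 551 leaned to ergosterol and 458 to the extract (54.6% to ergosterol), and with quantile normalization 542 and 439 (55.2%). Without SiLipids 4, 343 leaned to ergosterol and 1251 to the extract, of 18295 tested. The extract count alone then exceeded the 913.7 expected by chance over 18274 transcripts in both directions together. When libraries were weighted by how well they fitted (array weights), 558 and 1632 leaned to ergosterol and to the extract. A total near chance was thus not kept in every setting.

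A missing call is not a measured equality, so the intervals were counted as well. The 95% interval of the difference lay wholly between −1 and 1 for 16710 transcripts (91.4%), that is, for 95.2% of those averaging 5 TPM or more and 83.3% of those below 5 TPM. The median SE was 0.15. A difference beyond 1 in size was estimated for 139 transcripts, 32 higher upon ergosterol and 107 higher upon the extract. The libraries of the 2 treatments did not overlap in 354 transcripts higher upon ergosterol (1.94%) and 707 higher upon *S. indica* lipids (3.87%). With groups this small, shares of this order can arise by chance alone. A lack of overlap in a single transcript therefore does not by itself show a difference between the treatments, here or below. The difference was above 0 for 7431 transcripts (40.7%), and the median over all was −0.033, or −0.043 without SiLipids 4.

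The single transcript past the adjusted threshold encoded a DEAD-box ATP-dependent RNA helicase (6HG0558170.1), of a family of enzymes that unwind RNA during its processing. It had 38.3, 39.7 and 43.1 TPM upon ergosterol, 18.2, 21.2, 20.4 and 21.8 TPM upon *S. indica* lipids, and 33.9, 32.1 and 36.1 TPM in the solvent control. Every ergosterol library thus lay above every solvent control library, and every extract library lay below both. The difference was 0.95 (SE 0.091, 95% interval 0.75 to 1.15, adjusted *p* = 0.0103, limma), and 0.98 without SiLipids 4. Over the alternative analyses its adjusted *p* ranged from 0.00318 to 0.106. It missed 0.05 in a fit of the 7 libraries alone, at 0.0857, with the replicate number as a block, at 0.106, and when any of the ergosterol libraries, SiLipids 2 or SiLipids 3 was left out, at 0.054 to 0.0985.

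Whether the treatments differ on the transcripts that respond to them was asked of the transcripts that were called when all 7 treated libraries were set against the solvent control. The estimate of the choosing contrast shares no sampling error with the direct difference, so the choice does not fix its direction. Both contrasts use the same estimate of spread, however, so the choice favours transcripts with a small spread. Of the called transcripts, 210 were higher in treated roots (1.15% of all tested) and 5 were lower (0.0274%). The 210 had a median direct difference of −0.002, with quartiles at −0.23 and 0.16, and 103 lay above 0 and 107 below. Their response to treatment had a median of 1.32. The interval of the direct difference lay within 1 of 0 for 177 of them (84.3%). Of the 210, 12 (5.71%) had an unadjusted *p* under 0.05 in favour of ergosterol and 18 (8.57%) in favour of the extract, beside 1.59% and 3.7% of all transcripts, and none passed the adjusted threshold (lowest adjusted *p* = 0.113, limma). Such shares can be raised by the choice of transcripts with a small spread. Without SiLipids 4 the median of the 210 was 0.081 and 120 lay above 0.

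**Figure D1:**
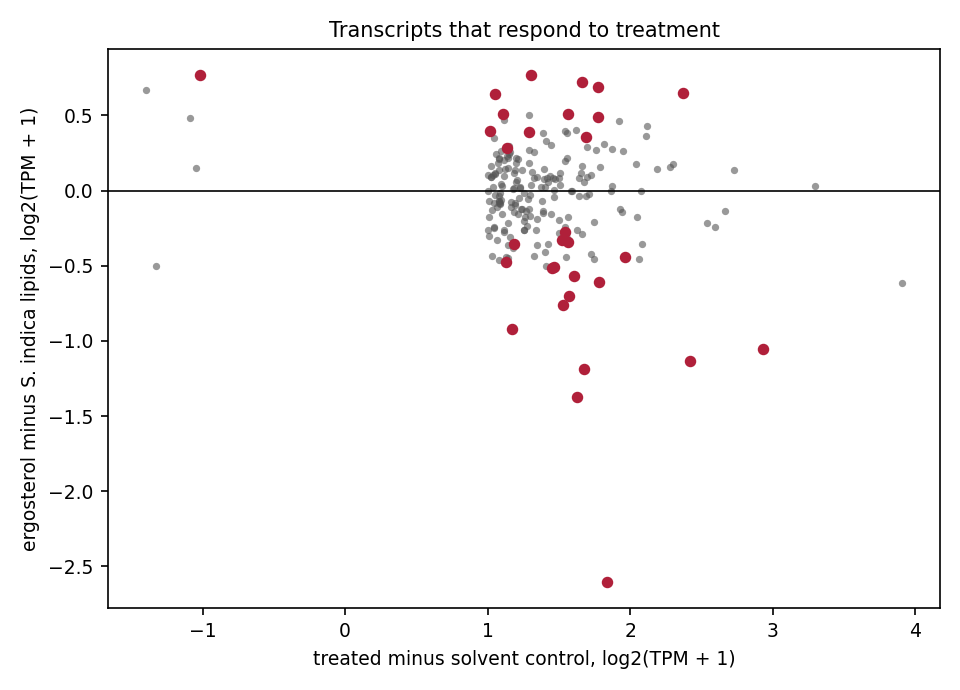
The direct difference (ergosterol minus *S. indica* lipids, log2(TPM + 1), vertical axis) is plotted against the response of all treated libraries minus the solvent control (horizontal axis, log2) for the 210 transcripts higher and the 5 lower in treated roots. Each point is a transcript, and red points have an unadjusted *p* under 0.05 in the direct comparison. The points lie on both sides of 0, with a median of −0.002 for the 210, and the lowest is the G-patch transcript at −2.61.

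Among the responding transcripts, enzymes of phenolic amide synthesis leaned to ergosterol and early nodulin 93 transcripts leaned to the extract. All 8 responding transcripts of the coumaroyltransferase and amine decarboxylase list lay above 0, with a median of 0.21, and all 5 of the early nodulin 93 list lay below, with a median of −0.50. The 12 responding blue copper proteins, small copper-binding electron carriers, were divided, with 5 above 0 and a median of −0.056. The 11 responding transcripts described only as receptor-like kinases had a median of 0.12, with 8 above 0. Beside these, 103 of the 210 lay above 0.

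The tryptophan decarboxylase 7HG0643120.1, which makes tryptamine from tryptophan, had 0.731, 1.90 and 1.10 TPM in the solvent control. It had 10.4, 8.69 and 7.67 TPM upon ergosterol and 5.34, 4.28, 4.59 and 6.45 TPM upon *S. indica* lipids. All treated libraries lay above the controls, and the 2 treatments did not overlap. The direct difference was 0.69 (SE 0.19, interval 0.26 to 1.12), with an adjusted *p* of 0.787 (limma). Agmatine coumaroyltransferase-2 4HG0406090.1, which joins coumaric acid to agmatine to form hordatine precursors in barley, had 75.8, 84.6 and 86.4 TPM upon ergosterol. It had 47.4, 62.3, 56.0 and 65.8 TPM upon the extract and 19.0, 31.4 and 17.9 TPM in the control. The treatments did not overlap here either, and the difference was 0.51 (SE 0.18, adjusted *p* = 0.915, limma). A phenylalanine ammonia-lyase (2HG0137190.1), the entry enzyme of phenylpropanoid synthesis, was named after its values were seen. It had 27.9, 25.7 and 26.0 TPM upon ergosterol and 20.5, 22.3, 18.7 and 25.3 TPM upon the extract. Its lowest ergosterol library lay just above its highest extract library, with a difference of 0.28 (SE 0.12). Over the 47 tested transcripts of the phenylpropanoid entry list, the median was −0.010, with 23 above 0.

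Some other responding transcripts with well annotated products were named after their values were seen. Like the phenylalanine ammonia-lyase, each had an unadjusted *p* under 0.05 in the direct comparison (limma), so a separation was part of the choice. Their lists had medians of −0.036 (68 chitinases and glucanases, 26 above 0) and −0.028 (192 of calcium signalling, 79 above 0). The 4 transcripts of proline metabolism had −0.21, with 1 above 0. 1-pyrroline-5-carboxylate dehydrogenase (5HG0517210.1), a mitochondrial enzyme of proline breakdown, had 0.469, 1.58 and 0.567 TPM in the control, 4.93, 5.29 and 5.35 TPM upon ergosterol, and 15.1, 16.7, 8.50 and 11.5 TPM upon the extract. It rose upon both treatments and was higher in each extract library than in any ergosterol library, by 1.13 (SE 0.24, adjusted *p* = 0.506, limma). A chitinase family protein (6HG0592970.1), of enzymes that cut fungal wall chitin, had 37.2, 39.1 and 41.9 TPM upon ergosterol and 49.0, 57.5, 64.8 and 65.9 TPM upon the extract, again with no overlap (−0.57, SE 0.21). In the other direction, calmodulin-lysine N-methyltransferase (5HG0498970.1), which methylates the calcium sensor calmodulin, had 47.8, 52.2 and 56.6 TPM upon ergosterol and 31.1, 35.5, 21.9 and 34.3 TPM upon the extract. The groups did not overlap, and the control lay at 11.9 to 17.1 TPM (difference 0.77, SE 0.17, adjusted *p* = 0.611, limma). A salicylate O-methyltransferase (3HG0316030.1), which forms methyl salicylate, had 4.93, 4.06 and 4.63 TPM upon ergosterol and 3.47, 1.59, 2.48 and 2.90 TPM upon the extract (0.64, SE 0.21). Its groups did not overlap.

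The table's descriptions sorted 5692 of the tested transcripts into lists, 83 of which had at least 8 tested members. The median difference was below 0 in 59 of the 83 and above 0 in 23, beside a median of −0.033 over all transcripts. Most lists were close to that value, 71 of them with a median between −0.16 and 0.033. The 6 lists that leaned most to the extract were histones, arabinogalactan proteins, early nodulin 93, expansins and xyloglucan enzymes, subtilisin-like proteases and ribosomal proteins. The 6 that leaned most to ergosterol were germin-like proteins, laccases, diterpene synthesis, carotenoid and apocarotenoid enzymes, abscisic acid genes, and coumaroyltransferases and amine decarboxylases. Without SiLipids 4, 72 of the 83 medians kept their sign, and 4 of the 6 lists at each end stayed among the 6. Mean levels were higher in every extract library than in every ergosterol library in 9 lists, and the reverse held in 1, the germin-like proteins. These are descriptions of lists, with no test.

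**Figure D2:**
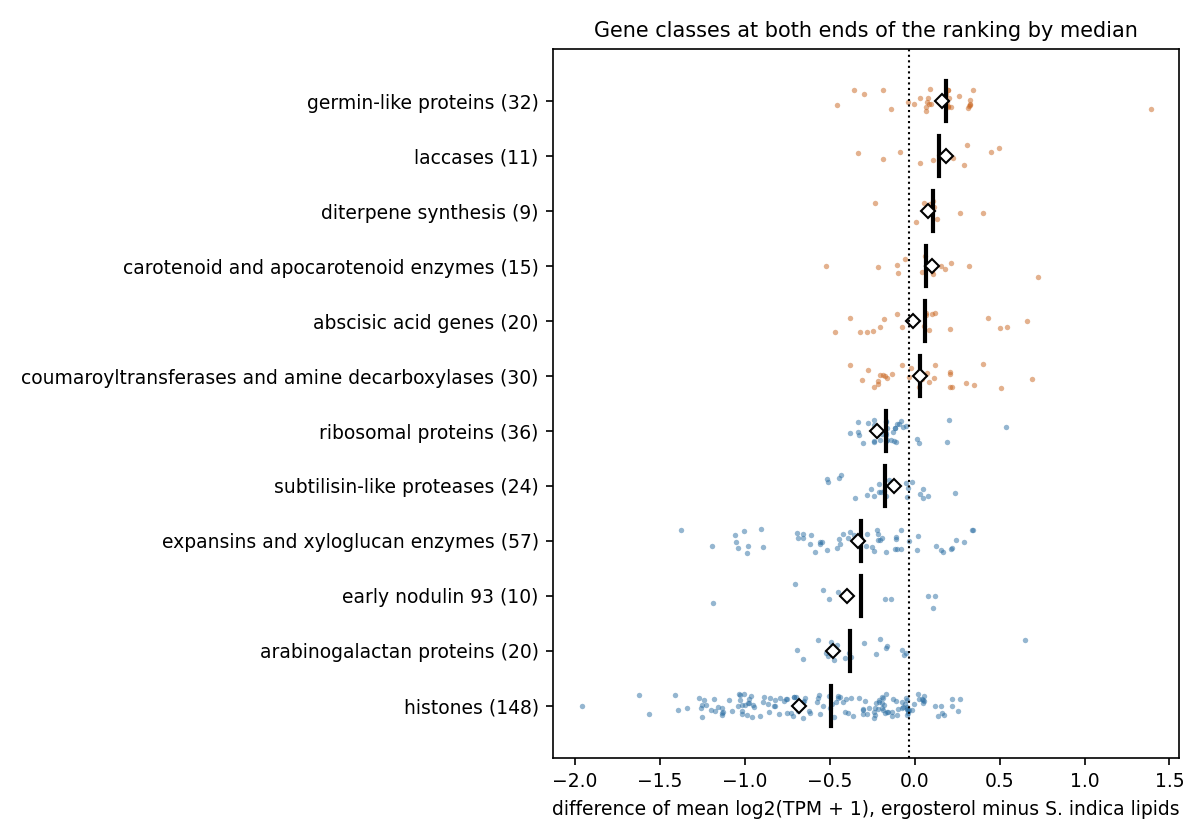
Median difference (ergosterol minus *S. indica* lipids, log2(TPM + 1)) of the 12 lists that leaned most to either treatment, with the number of tested members in brackets. Points are transcripts, bars the median of a list, diamonds its median without SiLipids 4, and the dotted line the median of all transcripts. Histones lie lowest, at −0.49 with all libraries and −0.68 without SiLipids 4, and germin-like proteins lie highest, at 0.18 and 0.16.

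Histones, the proteins that package DNA, leaned most to the extract. Of the 202 histone transcripts listed, 148 were tested, and 132 of them were lower upon ergosterol and 16 higher, with a median of −0.49 (−0.68 without SiLipids 4). An unadjusted *p* under 0.05 was reached by 39 transcripts (26.4%) in favour of the extract and by 1 in favour of ergosterol, beside 3.7% and 1.59% of all transcripts, and the lowest adjusted *p* was 0.34 (limma). The mean log2 level over the 148 was 3.38, 3.37 and 3.43 upon ergosterol and 3.80, 4.34, 4.15 and 3.46 upon the extract. Every extract library lay above every ergosterol library, SiLipids 4 only just. The control libraries, at 3.52, 3.69 and 4.37, spanned nearly the same range as the extract. Relative to the control, the median was −0.43 upon ergosterol and 0.052 upon the extract.

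Medians of the core histones were lower than that of the linker histone. The median was −0.71 over 33 H3 transcripts, −0.66 over 27 H2B, −0.62 over 36 H4, −0.28 over 43 H2A and −0.13 over 8 of the linker histone H1. For H3 it was −0.33 with a minimum of 5 TPM, −0.32 with no minimum and −1.025 with a pseudocount of 0.1. The whole histone list had −0.305 with a minimum of 5 TPM. H1 transcripts were also more abundant, with a mean log2 level of 5.41 to 5.90 in treated libraries beside 3.13 to 4.17 for H3. Histone type and level therefore cannot be told apart. The lean went with level, in a split chosen after the values were seen. The 51 histone transcripts below 5 TPM had a median of −0.75 and the 68 between 5 and 50 TPM one of −0.60, whereas the 29 at 50 TPM or more had −0.10. Over all transcripts the same bands gave −0.049, −0.034 and −0.013. The sum of all histone TPM, which the most abundant transcripts set, was 8740, 10600 and 9020 upon ergosterol and 9310, 10900, 11500 and 9360 upon the extract, and these overlapped.

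Members of the list show how the libraries were placed. The histone H4 transcript 6HG0604620.1 had 6.77, 13.4 and 8.63 TPM upon ergosterol, 27.1, 37.9, 33.6 and 25.3 TPM upon the extract, and 13.0, 23 and 65.6 TPM in the control (difference −1.62, SE 0.42, adjusted *p* = 0.733, limma). The extract libraries all lay above the ergosterol libraries, while the control ran from the level of ergosterol to above the extract. The histone H3 transcript 7HG0654580.1 had 3.28, 1.93 and 4.67 TPM upon ergosterol and 15.3, 7.90, 14.1 and 9.33 TPM upon the extract (−1.57, SE 0.36). Both transcripts were among those named for a lack of overlap. Another H3 transcript, 7HG0730800.1, was listed at 0 in all 3 ergosterol libraries and at 3.34, 7.12, 1.92 and 1.22 TPM upon the extract, with 0.989 to 1.74 TPM in the control. In 1HG0074500.1, also H3, the values differed by library: it had 3.65, 2.50 and 2.70 TPM upon ergosterol and 6.76, 20.0, 15.0 and 3.55 TPM upon the extract, where SiLipids 4 lay among the ergosterol libraries. Histone genes occur in many near-identical copies that can share reads, so values of single copies are uncertain.

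Histone transcripts are most abundant in cells that replicate their DNA. The list of cell division genes leaned the same way by less. Its mean log2 level was 2.95, 2.92 and 2.94 upon ergosterol, 3.15, 3.10, 3.02 and 2.97 upon the extract, and 2.97, 3.20 and 3.13 in the control. The median difference of its 110 tested members was −0.098 (−0.14 without SiLipids 4), with 27 above 0. That median ranked 19 of 83 from the extract end, and class III peroxidases (−0.14) and cellulose synthases (−0.16) lay lower. An unadjusted *p* under 0.05 (limma) was reached by 5 members (4.55%) in favour of the extract, beside 3.7% of all transcripts. In favour of ergosterol it was reached by 1 (0.909%), beside 1.59%. The summed level of the list was 2650, 2620 and 2860 TPM upon ergosterol and 3320, 3110, 2880 and 2480 TPM upon the extract, so that SiLipids 4 had the lowest sum. Within the list, 53 cyclins had a median of −0.090, 47 kinesins −0.12 and 10 transcripts of the MCM and DNA replication group −0.084. The part of dividing cells in the histone result was not tested.

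**Figure D3:**
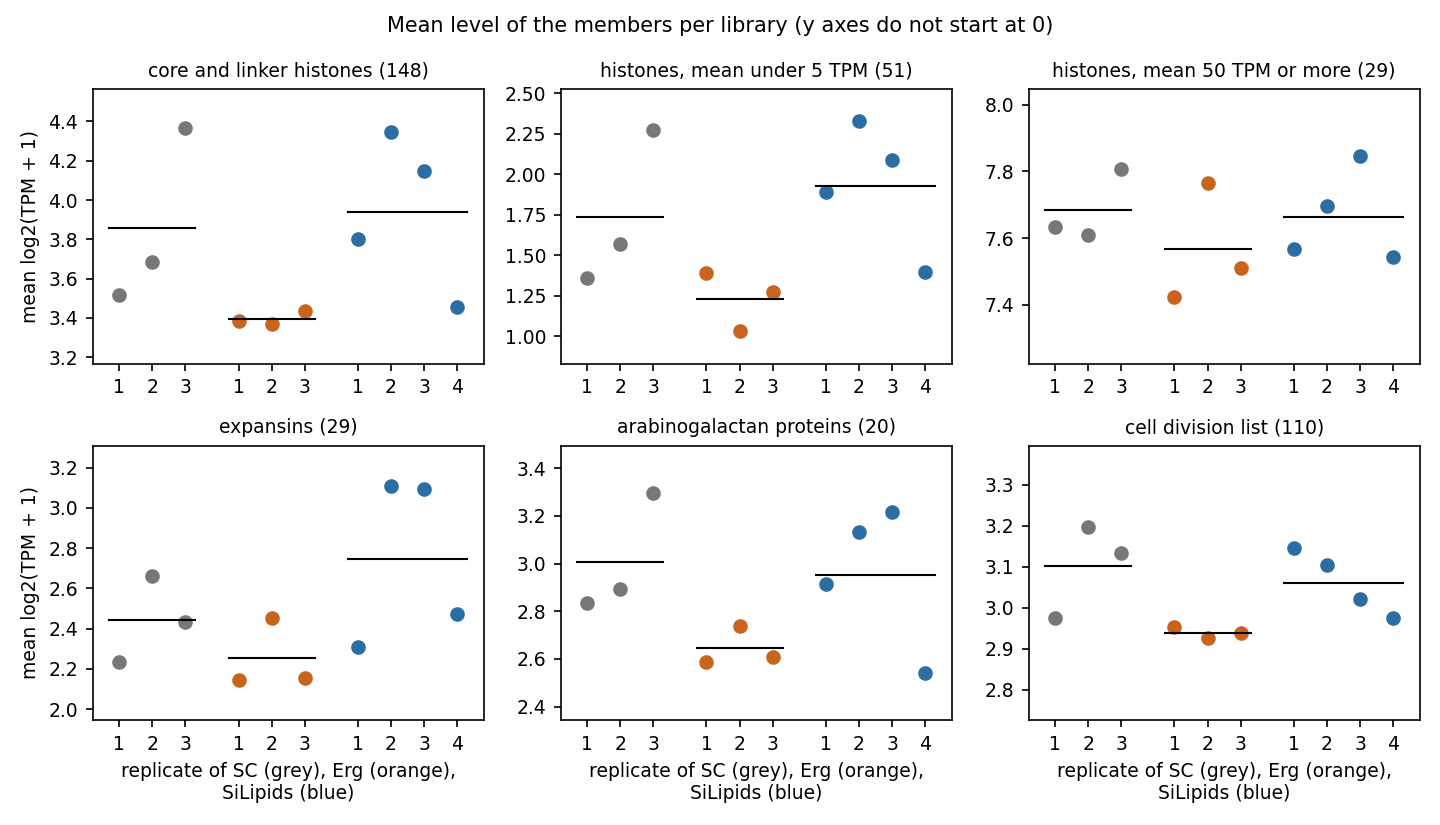
Mean log2(TPM + 1) of the members of selected lists in each of the 10 libraries, with the solvent control in grey, ergosterol in orange and *S. indica* lipids in blue. Lines are group means, and the vertical axes do not start at 0. For histones the 3 ergosterol libraries lie between 3.37 and 3.43 and the 4 extract libraries between 3.46 and 4.34, and the solvent control lies between 3.52 and 4.37.

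Transcripts for wall loosening also leaned to the extract. Of 57 tested transcripts of expansins, which loosen the wall during growth, and of xyloglucan enzymes, which cut and rejoin a wall polymer, 46 were lower upon ergosterol and 11 higher, with a median of −0.31 (−0.33 without SiLipids 4, −0.49 without Erg 2). In 12 the unadjusted *p* was under 0.05 in favour of the extract, and in none in favour of ergosterol, that is, 21.1% beside 3.7% of all transcripts and 0 beside 1.59% (lowest adjusted *p* = 0.85, limma). The 29 expansins had a median of −0.46 and the 28 xyloglucan enzymes −0.22. Relative to the control the list's median was −0.30 upon ergosterol and 0.074 upon the extract. Mean levels overlapped, at 2.44, 2.70 and 2.44 upon ergosterol and 2.65, 3.10, 3.17 and 2.67 upon the extract, because Erg 2 lay above the lowest pair of extract libraries.

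The expansin 1HG0056570.1 had 0.959, 2.70 and 4.38 TPM upon ergosterol, 4.13, 7.75, 16.1 and 6.85 TPM upon the extract, and 3.52, 17.0 and 15.8 TPM in the control (difference −1.38, SE 0.54). Erg 3 and SiLipids 1 overlapped. The xyloglucan endotransglucosylase/hydrolase 7HG0728870.1 had 9.08, 22.7 and 10.8 TPM upon ergosterol and 27.7, 34.1, 38.6 and 16.9 TPM upon the extract (−1.04, SE 0.34), so Erg 2 lay above SiLipids 4. The expansin 3HG0223260.1 owed its difference of −0.98 (SE 0.83) to SiLipids 2: it had 110 TPM there, 3.90, 15.0 and 14.2 TPM in the other extract libraries, and 9.56, 14.1 and 4.63 TPM upon ergosterol. Without SiLipids 2 the difference was −0.14.

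Arabinogalactan proteins, heavily glycosylated proteins of the cell surface, were lower upon ergosterol in 19 of 20 tested transcripts, with a median of −0.38, or −0.48 without SiLipids 4. The mean level was 2.58, 2.74 and 2.61 upon ergosterol and 2.92, 3.13, 3.22 and 2.54 upon the extract. SiLipids 4 was the lowest of the 7 libraries here and the other extract libraries all lay above the ergosterol libraries. The control lay at 2.83 to 3.29. The fasciclin-like arabinogalactan protein 1HG0087820.1 followed this pattern, with 23.7, 35.4 and 30.0 TPM upon ergosterol and 52.9, 67.4, 54.8 and 24.6 TPM upon the extract (−0.66, SE 0.32). In 5HG0488780.1, of the same kind, the groups did not overlap, with 5.24, 5.4 and 4.97 TPM against 6.92, 7.15, 11.6 and 6.70 TPM (−0.52, SE 0.20). The third named member, 4HG0410750.1, had 7.10, 12.6 and 8.24 TPM against 9.40, 15.9, 18.3 and 13.7 TPM (−0.57, SE 0.25), and Erg 2 overlapped the extract.

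Early nodulin 93 transcripts differ from the growth-related lists in that they lay above the control upon both treatments, with a median of 1.06 upon ergosterol and 1.63 upon the extract. Of the 11 listed, 10 were tested, and 7 of them were lower upon ergosterol than upon the extract (median −0.32, −0.40 without SiLipids 4). The size of this lean rested on single libraries, since the median was −0.093 without SiLipids 3, −0.20 without Erg 1 and −0.52 without Erg 2. Transcript 7HG0649480.1 had 3.55, 8.65 and 17.7 TPM in the control, 10.5, 29.8 and 17.5 TPM upon ergosterol, and 34.1, 28.2, 64.5 and 47.7 TPM upon the extract. Erg 2 lay above SiLipids 2, and the other libraries were separate (difference −1.18, SE 0.46, adjusted *p* = 0.915, limma). Transcripts 7HG0649510.1 and 7HG0649540.1 had differences of −0.70 (SE 0.28) and −0.50 (SE 0.30), and in both the groups overlapped. The 3 carry neighbouring locus numbers, and similar copies can share reads.

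Subtilisin-like proteases, secreted serine proteases, had a median of −0.18 over 24 tested transcripts, 5 of them above 0 (−0.12 without SiLipids 4 and −0.11 without Erg 2). Transcript 7HG0654260.1 had 52.3, 47.6 and 48.6 TPM in the control, 202, 141 and 155 TPM upon ergosterol, and 244, 221, 184 and 252 TPM upon the extract. It rose upon both treatments, with 1.71 upon ergosterol (adjusted *p* = 0.000298, limma) and 2.16 upon the extract (adjusted *p* = 3.43e-05). The direct difference was −0.44 (SE 0.14, adjusted *p* = 0.867), and Erg 1 lay above SiLipids 3. Transcript 3HG0243460.1 had 11.2, 10.2 and 8.42 TPM upon ergosterol against 14.2, 15.3, 10.5 and 19.6 TPM (−0.52, SE 0.19). Transcript 4HG0413120.1 varied more within ergosterol, from 0 to 18.3 TPM, than between treatments (−0.51, SE 0.80).

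Ribosomal proteins were lower upon ergosterol in 31 of 36 tested transcripts, with a median of −0.17 (−0.22 without SiLipids 4, −0.060 without Erg 1 and −0.091 without SiLipids 1), and none reached an unadjusted *p* under 0.05 in either direction (lowest adjusted *p* = 0.959, limma). Ribosomal protein L3 (5HG0455100.1), a part of the large subunit, had 89.6, 115 and 113 TPM upon ergosterol, 168, 144, 144 and 89.5 TPM upon the extract, and 135, 171 and 184 TPM in the control. SiLipids 4 matched the lowest ergosterol library, and the other extract libraries lay above all of them. Without SiLipids 4, 10 of the 36 reached an unadjusted *p* under 0.05 in favour of the extract, as did 1251 of all 18295 transcripts tested in that fit. The median relative to the control was −0.36 upon ergosterol and −0.21 upon the extract. Of the 36, 7 fell in 2 sets whose TPM matched within 1% in all 10 libraries, which left 31 distinct profiles. Counts of transcripts take such copies as separate.

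At the ergosterol end, germin-like proteins stood first. They are apoplastic proteins of the cupin fold, some of which make hydrogen peroxide. Of 32 tested transcripts 25 were higher upon ergosterol, with a median of 0.18, or 0.16 without SiLipids 4, 0.093 without Erg 1 and 0.11 without SiLipids 3. The 4 germin-like transcripts among those that respond to treatment had a median of −0.088, with 1 above 0. The mean level was 4.66, 4.68 and 4.75 upon ergosterol, 4.54, 4.64, 4.51 and 4.53 upon the extract, and 4.30, 4.23 and 4.34 in the control. The groups did not overlap, although Erg 1 and SiLipids 2 were separated by less than the ergosterol libraries were among themselves. In favour of ergosterol, 2 members (6.25%) reached an unadjusted *p* under 0.05, beside 1.59% of all transcripts, and none did in favour of the extract (lowest adjusted *p* = 0.915, limma).

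The most abundant named member, 6HG0604640.1, had 681, 646 and 782 TPM upon ergosterol and 637, 579, 541 and 497 TPM upon the extract, beside 463 to 589 TPM in the control. The treatments did not overlap, and the difference was 0.32 (SE 0.12, interval 0.058 to 0.58). Transcript 4HG0335460.1 had 86.0, 70.6 and 93.1 TPM against 72.3, 71.9, 65.9 and 52.0 TPM (0.34, SE 0.20), with Erg 2 among the extract libraries. In 4HG0418940.1 the highest value of all, 11 TPM, was that of SiLipids 4, and the difference was 0.31 (SE 0.49). Germin-like genes also lie in families of similar copies that can share reads. Of the 32 tested, 7 fell in 2 sets whose TPM matched within 1% in all 10 libraries, which left 27 distinct profiles.

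Laccases, copper oxidases that can polymerize lignin precursors, had a median of 0.14 over 11 tested transcripts, 8 of them above 0 (0.19 without SiLipids 4, 0.25 without Erg 1 and 0.039 without Erg 2). Laccase 1HG0020450.1 had 6.47, 8.12 and 10.1 TPM upon ergosterol, 5.54, 6.23, 6.27 and 4.72 TPM upon the extract, and 2.32, 3.22 and 3.02 TPM in the control. The groups did not overlap (0.45, SE 0.16, adjusted *p* = 0.915, limma). Laccase 7HG0637080.1 had 92.1, 87.3 and 79.7 TPM against 71.1, 68.9, 61.8 and 77.1 TPM, also without overlap (0.31, SE 0.15). Laccase 3HG0301840.1 had 11.1, 13.5 and 15.0 TPM against 9.77, 11.6, 10.4 and 10.5 TPM (0.29, SE 0.17), and Erg 1 overlapped the extract.

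Diterpene synthesis, the pathway to gibberellins and diterpenoid defence compounds, had 9 tested transcripts, 8 of them above 0, with a median of 0.11. Without SiLipids 4 the median was 0.076 and 5 were above 0. Copalyl diphosphate synthase 2HG0099570.1, which carries out the first cyclization, had 57.1, 99.1 and 53.6 TPM in the control, 256, 182 and 268 TPM upon ergosterol, and 177, 173, 158 and 198 TPM upon the extract. Erg 2 lay below SiLipids 4, and the interval of the difference ran from −0.050 to 0.85 about 0.40. Kaurene synthase 2HG0099360.1, which acts after it, had 71.4, 43.5 and 79.0 TPM against 57.8, 52.1, 43.3 and 55.8 TPM (0.27, SE 0.22), with Erg 2 again among the extract libraries. Geranylgeranyl diphosphate synthase 7HG0735250.1, which supplies the precursor, differed by 0.11 (SE 0.12).

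The remaining lists at the ergosterol end had medians too small to part from 0 by their libraries. Carotenoid and apocarotenoid enzymes had a median of 0.069 over 15 transcripts, 10 of them above 0 (0.10 without SiLipids 4), and abscisic acid genes one of 0.059 over 20, with 11 above 0. The carotenoid cleavage dioxygenase 5HG0473380.1 had 9.40, 6.94 and 8.89 TPM upon ergosterol against 7.09, 7.67, 4.64 and 6.89 TPM (0.32, SE 0.20). Phytoene desaturase (4HG0405810.1, 0.11, SE 0.12) and zeta-carotene desaturase (2HG0144000.1, 0.069, SE 0.11), successive enzymes of carotenoid synthesis, had smaller differences. The abscisic stress ripening transcript 3HG0325230.1 had 35.7, 12.1 and 20.5 TPM against 10.3, 14.5, 18.3 and 19.2 TPM (0.43, SE 0.42), where Erg 1 set the difference. Without SiLipids 4 the median of the abscisic acid list was −0.008, without Erg 2 it was −0.083, and without Erg 1 that of the carotenoid list was −0.006. The 30 coumaroyltransferases and amine decarboxylases had a median of 0.034, with 16 above 0 (0.032 without SiLipids 4), and without SiLipids 1 it was −0.065. So the lean of its 8 responding members was not seen over the list.

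Among members of the MEP pathway, the plastid route to terpenoid precursors, and of the blue copper list, differences of at least 0.5 were rare. The 21 tested MEP transcripts had a median of 0.027 (0.009 without SiLipids 4), and 1-deoxy-D-xylulose 5-phosphate synthase 1HG0085440.1 was the only one with such a difference. It had 16.0, 14.1 and 19.1 TPM upon ergosterol against 7.40, 8.91, 10.6 and 14.3 TPM upon the extract, where SiLipids 4 lay just above Erg 2, and the difference without that library was 0.81. Of 37 blue copper transcripts, with a median of −0.10 (−0.099 without SiLipids 4), 4 differed by this much. Transcript 2HG0213120.1 had 22.8, 20.0 and 19.5 TPM upon ergosterol and 45.0, 26.6, 29.0 and 30.8 TPM upon the extract, without overlap (−0.61, SE 0.30). The basic blue protein 6HG0612330.1, listed at 0 in every control library, had 1.16, 0 and 0.818 TPM against 1.76, 3.46, 0.752 and 3.04 TPM (−0.95, SE 0.34). It averaged 0.66 TPM upon ergosterol and passed the minimum of 1 TPM only through its extract values. Basic blue protein 7HG0670730.1 (−0.53, SE 0.22) and blue copper protein 2HG0138540.1 (0.52, SE 0.45) overlapped between treatments.

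Identical descriptions gave a finer grouping than the lists. Of 280 descriptions shared by at least 10 tested transcripts, the lowest medians belonged to histone H3, histone H2B, expansin (−0.65, 0 of 12 above 0), histone H4 and expansin protein (−0.51, 13 transcripts). Without SiLipids 4 they were −0.85, −0.91, −0.99, −0.81 and −0.71 in this order. Without SiLipids 2, in contrast, expansin had −0.32 and histone H4 −0.34. Expansin protein had −0.29 without SiLipids 3. With a minimum of 5 TPM, expansin protein had 0.17 and histone H3 −0.33. The highest belonged to wound-responsive family protein (0.38, 12 of 14 above 0, 0.33 without SiLipids 4, 0.65 without Erg 3), reverse transcriptase (0.25, 10 transcripts), germin-like protein (0.20, 25 transcripts), O-methyltransferase (0.17, 12 transcripts) and agmatine coumaroyltransferase-2 (0.16, 12 transcripts). The last 4 had 0.20, 0.17, 0.23 and 0.20 without SiLipids 4. Their medians rested on single libraries, since without Erg 1 reverse transcriptase had 0.069, germin-like protein 0.090 and O-methyltransferase 0.042, and agmatine coumaroyltransferase-2 had 0.10 without Erg 3. Reverse transcriptase also turned to −0.056 with no minimum TPM.

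The wound-responsive family proteins, small proteins named for transcripts that rise upon wounding, included 8 transcripts with locus numbers from 2HG0207480 to 2HG0207620. This subset was formed after the values were seen. All 8 lay above 0, with a median of 0.62 (0.48 without SiLipids 4), 5 had an unadjusted *p* under 0.05 (1.59% of all transcripts in this direction), and 3 did not overlap (1.94% of all). The 8 include 2HG0207580, which is listed at 0 in most libraries. The other 6 had a median of 0.14. Summed over the 8, the level was 12900, 13600 and 11100 TPM upon ergosterol, 8670, 11100, 9980 and 7870 TPM upon the extract, and 12300, 13300 and 9900 TPM in the control. The sum was lowest in SiLipids 4, and SiLipids 2 was level with Erg 3. The median relative to the control was 0.095 upon ergosterol and −0.63 upon the extract.

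The most abundant of them, 2HG0207480.1, had 7640, 8510 and 6800 TPM upon ergosterol and 5920, 6850, 6600 and 5420 TPM upon the extract (0.30, SE 0.13). SiLipids 2 lay just above Erg 3. Transcript 2HG0207530.1 had 1200, 1310 and 1050 TPM against 639, 957, 866 and 572 TPM, with no overlap, and 1600, 1580 and 1140 TPM in the control (0.67, SE 0.19, interval 0.25 to 1.09, adjusted *p* = 0.797, limma). Transcript 2HG0207610.1 had 270, 303 and 218 TPM against 116, 210, 188 and 95.7 TPM (0.85, SE 0.26), and 2HG0207560.1 had 1120, 1080 and 954 TPM against 590, 896, 717 and 546 TPM (0.64, SE 0.20). All 3 were lower in every extract library than in every ergosterol library. How far these copies share reads was not tested, and the roots of all groups had been cut.

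**Figure D4:**
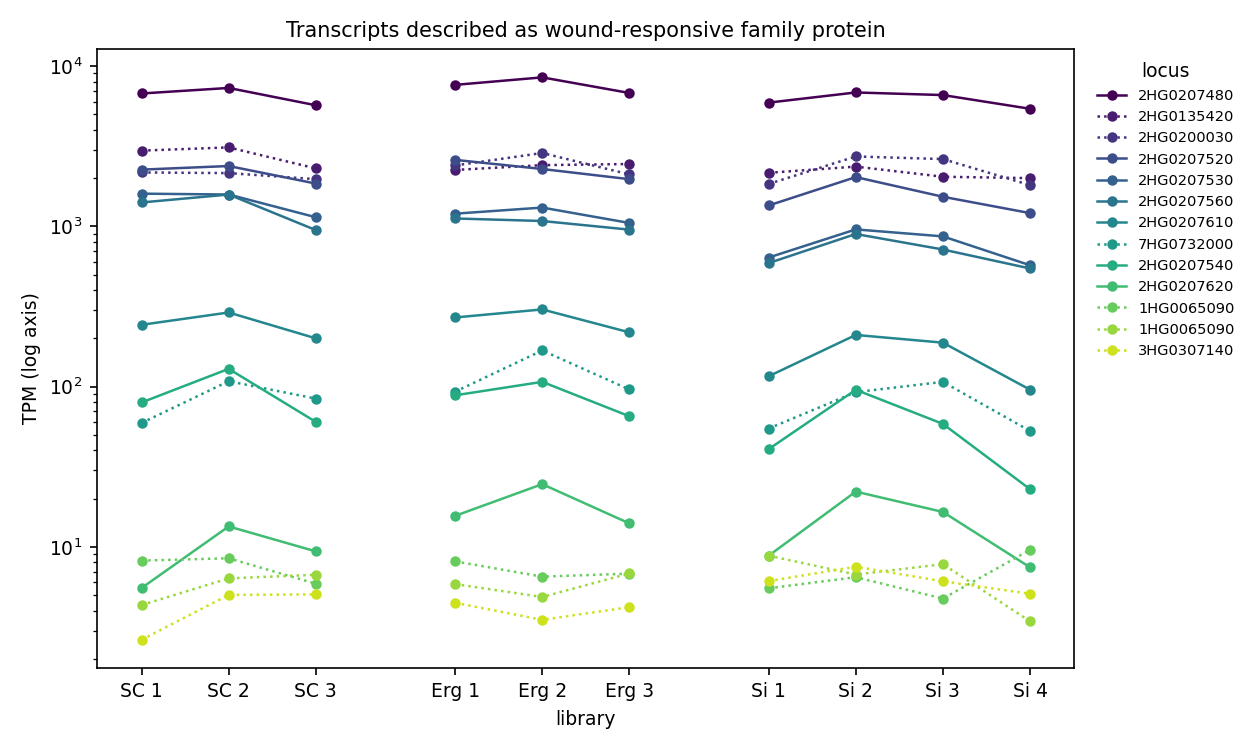
TPM (log axis) of 13 of the 14 transcripts described as wound-responsive family protein in each library. Solid lines are the 8 loci between 2HG0207480 and 2HG0207620, save 2HG0207580, and dotted lines are the others. 2HG0207580, listed at 0 in most libraries, was left out because it averaged no more than 1 TPM over the 10 libraries. The most abundant locus lies between 6800 and 8510 TPM upon ergosterol and between 5420 and 6850 TPM upon *S. indica* lipids. Lines join the libraries of a group only to guide the eye.

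Single transcripts with the largest separated differences were taken from 208 at an unadjusted *p* under 0.01, of which 59 higher upon ergosterol and 126 higher upon the extract had no overlap, and the 12 largest in each direction were named. None passed the adjusted threshold except the helicase. The products higher upon ergosterol had varied roles. DNA ligase (2HG0192690.1), which seals breaks in DNA, had 79.3, 101 and 110 TPM upon ergosterol, 52.7, 78.0, 36.5 and 33.3 TPM upon the extract, and 36.8 to 48.4 TPM in the control (1.00, SE 0.25, adjusted *p* = 0.712, limma). Erg 1 and SiLipids 2 were close, and the other libraries were far apart. A jasmonate zim-domain protein (2HG0163880.2), of the family that represses jasmonate responses, had 3.91, 5.19 and 5.34 TPM against 1.42, 1.81, 1.59 and 3.10 TPM, and the control at 1.71 to 1.96 TPM (0.99, SE 0.19). The extract libraries other than SiLipids 4 lay near the control. A pair of LOB domain transcription factors were higher upon ergosterol than upon the extract. Of these, 3HG0233680.1 had 49.9, 62.1 and 46.6 TPM against 20.9, 40.2, 30.8 and 23.6 TPM (0.88, SE 0.19), with 56.4 to 65.2 TPM in the control. The other, 4HG0414380.1, had 10.3, 12.8 and 8.01 TPM against 3.39, 7.64, 3.94 and 1.97 TPM (1.21, SE 0.31), with 7.84 to 13.6 TPM in the control. In both, the ergosterol libraries lay close to the control and the extract libraries below it.

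S-adenosylmethionine synthase (2HG0212540.1), which makes the main methyl donor, had 7.28, 2.44 and 3.39 TPM upon ergosterol against 0.612, 0.900, 1.55 and 0.528 TPM (1.43, SE 0.29). It had 2.24, 3.22 and 3.46 TPM in the control, above every extract library. A TCP-1/cpn60 chaperonin (6HG0631940.1), of a family that folds proteins, had 2.25, 3.09 and 5.05 TPM against 0, 0.681, 0.591 and 0.776 TPM (1.55, SE 0.35). Both are rare transcripts, and a lack of overlap was part of their choice. The largest difference, 2.61 (SE 0.76), was that of an aldo/keto reductase (2HG0159720.1) with 20.9, 10.4 and 27.1 TPM against 8.08, 0.174, 7.99 and 7.27e-05 TPM, and it fell to 2.07 without SiLipids 4. The rest were described as eukaryotic translation initiation factor 2 beta subunit (4HG0378950.2), LURP-one-like protein (3HG0313180.1), essential meiotic endonuclease 1A (1HG0059980.1) and methionyl-tRNA formyltransferase (1HG0052630.1), with differences of 0.88 to 0.94. The LURP-one-like transcript had 2.77 to 3.76 TPM in the control, 2.86 to 3.66 TPM upon ergosterol and 1.08 to 1.77 TPM upon the extract. For the initiation factor the difference was of 1 of 2 transcripts, since TPM summed over its locus differed by 0.005.

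**Figure D5:**
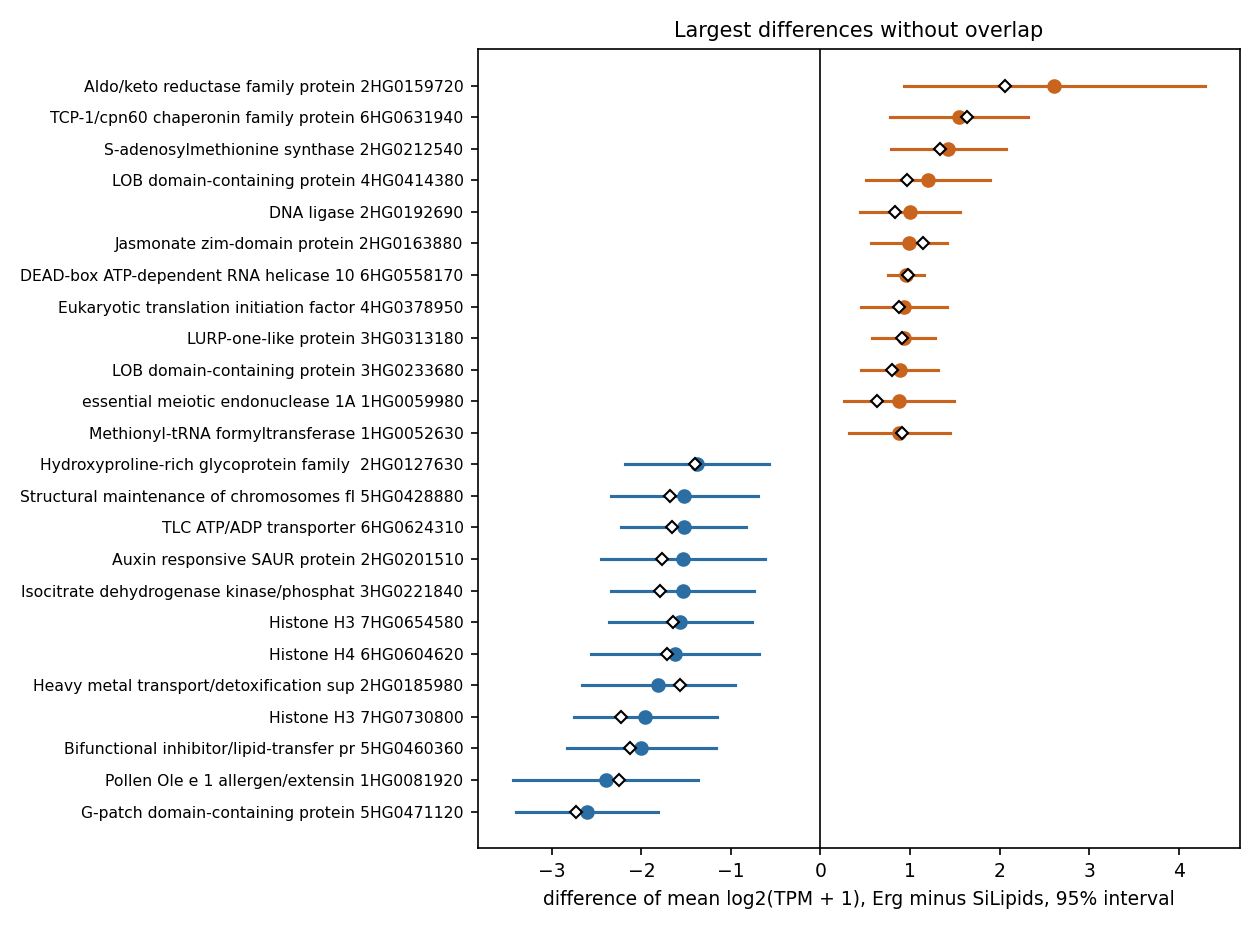
The 12 transcripts with the largest separated difference in each direction, with the difference (ergosterol minus *S. indica* lipids, log2(TPM + 1)) and its 95% interval from limma (points and lines), labelled by description and locus. Diamonds give the difference without SiLipids 4. Those higher upon ergosterol run from 0.88 to 2.61 and those higher upon the extract from −2.61 to −1.38.

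Of the 12 higher upon the extract, 3 were histones, described above, and 3 were products of the cell wall or of auxin response. The rest had varied descriptions, and the share of wall or auxin products among all tested transcripts was not counted. The largest difference, −2.61 (SE 0.36, adjusted *p* = 0.113, limma), was that of a G-patch domain transcript (5HG0471120.3), of a domain found in RNA-processing proteins. It had 0.0276, 0.000408 and 1.55 TPM upon ergosterol, 12, 4.85, 9.10 and 5.51 TPM upon the extract, and at most 0.235 TPM in the control. It was higher in each extract library than in any other library. It was also 1 of 3 transcripts of its locus and the locus sum differed by −0.006. Without Erg 3 its adjusted *p* was 0.0305. A Pollen Ole e 1 allergen/extensin (1HG0081920.1), of a family of secreted wall proteins, had 0.172, 0.247 and 0.490 TPM against 2.62, 5.95, 8.42 and 8.21 TPM (−2.40, SE 0.47), and 0.872, 6.48 and 1.02 TPM in the control. A hydroxyproline-rich glycoprotein (2HG0127630.1), of the wall as well, had 1.72, 3.23 and 5.91 TPM against 12.6, 7.17, 12.1 and 9.82 TPM (−1.38, SE 0.36). An auxin responsive SAUR transcript (2HG0201510.1), of a family of early auxin targets, had 1.14, 3.09 and 0.800 TPM against 4.61, 10.2, 8.89 and 3.48 TPM (−1.54, SE 0.41), beside 4.12 to 12.1 TPM in the control. All 12 were named for a lack of overlap, so the separation in these 3 wall and auxin transcripts is no added result.

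Some transcripts were listed at 0 in all 3 ergosterol libraries and above 0 in all 4 extract libraries, 4 in all, and none showed the reverse. Beside the H3 transcript, they were a lipid-transfer protein (5HG0460360.1) with 6.80, 3.55, 1.33 and 2.10 TPM upon the extract, a heavy metal transport/detoxification protein (2HG0185980.1) with 4.28, 1.80, 0.776 and 4.76 TPM, and a structural maintenance of chromosomes hinge-domain protein (5HG0428880.1), of a family that shapes chromosomes, with 4.08, 1.77, 1.33 and 1.05 TPM. The lipid-transfer protein had 3.31 to 7.57 TPM in the control, and the other pair had at least 1 control library at 0. At such levels 0 may be a failed estimate, and the depth is unknown. A transcript at 0 in every ergosterol library also passed the minimum of 1 TPM only through its extract values. So did 5HG0471120.3 (G-patch), 1HG0081920.1 (Ole e 1), 6HG0624310.1 and 3HG0221840.1, which averaged 0.527, 0.303, 0.287 and 0.574 TPM upon ergosterol. In the other direction, 2HG0212540.1 and 6HG0631940.1 passed it only through ergosterol values, with extract means of 0.898 and 0.512 TPM. Extract libraries, being 4 of the 7, weigh more in the mean set against that minimum. The count of transcripts at 0 in a single direction is thus no result about the treatments. The last of the 12 were a TLC ATP/ADP transporter (6HG0624310.1, −1.53, SE 0.32) and isocitrate dehydrogenase kinase/phosphatase (3HG0221840.1, −1.54, SE 0.36).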

How the data were processed

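Barley root polyA RNA was sequenced from directional libraries. Per the submitters' processing notes, reads were trimmed with Trimmomatic 0.39 and quantified with kallisto 0.46.1. The deposited table gives a TPM per transcript and library. The authors' TPM columns were treated as a score, because 5420 of the 43382 deposited lines repeat a transcript and lift the column sums above 1000000. Repeats had equal TPM and were dropped, and where their descriptions differed, in 239 transcripts, the first was kept. The authors' mean TPM, fold changes and *q*-values hold their own comparisons and were not used. The study's methods give 4 replicates per treatment, and 3 ergosterol, 4 *S. indica* lipid and 3 solvent control libraries were used here. No identifier matched the RefSeq table at hand (0 matches), so no positions or sequences are given.

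TPM were taken to log2 after adding 1 and fitted with limma 3.58.1 (R 4.3.3) in 1 fit of all 10 libraries with a variance trend. *p* were adjusted by the Benjamini-Hochberg method over 18274 transcripts. The treated contrast weighted ergosterol 3/7 and *S. indica* lipids 4/7. Lists were matched by words in the descriptions, and words that matched unrelated products were removed once the descriptions had been read. Members, lists and tests were chosen with earlier results of these data known. Transcripts were named by a rule: the 12 largest separated differences each way at an unadjusted *p* under 0.01, up to 3 members with at least 5 TPM per list described, and MEP, diterpene and blue copper members differing by at least 0.5. Some were named outside it, as stated. Alternatives were pseudocounts of 0.1 and 0.5, no minimum or 5 TPM, median-ratio scaling, quantile normalization, the 7 libraries alone, no variance trend, array weights, a block for the replicate number, sums of TPM per locus, and each library left out. The fit was tested on simulated data. Python 3.11.15, pandas 2.3.3, numpy 2.4.6 and matplotlib 3.10.9 served for other steps.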

Additional observations from a re-analysis of the deposited data

Results flagged for a closer look

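Among 85 sets of 4 extract libraries examined for a library that lies far from the others, 2 had one, and chance alone gives about 1 in 20. Both were SiLipids 3. The mean log2 level of the early nodulin 93 list was 5.57 in SiLipids 3 and 5.00, 4.98 and 4.95 in the others, a gap of 0.92 of the whole range. The fasciclin-like arabinogalactan protein 5HG0488780.1 had 11.6 TPM in SiLipids 3 and 6.92, 7.15 and 6.70 TPM in the others, a gap of 0.884 of the range.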

How the results depend on the processing

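Of 63 named transcripts, 58 kept their direction and 59 their side of the adjusted *p* limit over 21 settings. The directions that turned were those of 4HG0413120.1 (0.36 with array weights, −1.42 to 0.72 with a library left out, the highest without Erg 2), 4HG0418940.1 (−0.042 without SiLipids 2 to 0.63), 4HG0405810.1 (−0.007 without Erg 1 to 0.22), 2HG0144000.1 (−0.017 without SiLipids 3 to 0.13) and 3HG0325240.1 (−0.068 without Erg 1, −0.11 without SiLipids 3, up to 0.31). Calls numbered 3 with a pseudocount of 0.1, 1 with no variance trend, 1 with array weights and 0 to 1 with a library left out (1 without Erg 3). The adjusted *p* alone was passed by 4 with a pseudocount of 0.1, by 2 with no minimum TPM, no variance trend or array weights, by 0 in the fit of 7 libraries, and by 0 to 1 with a library left out (0 without Erg 1, Erg 2, SiLipids 2 or SiLipids 3). Leans to ergosterol at an unadjusted *p* under 0.05 were 513 with no minimum, 181 at 5 TPM, 551 and 542 with median-ratio and quantile scaling, 558 with array weights and 191 to 352 with a library left out (191 without Erg 1). Leans to the extract were 418 at 5 TPM, 439 with quantile scaling, 1632 with array weights and 428 to 1251 with a library left out (428 without SiLipids 2, 1251 without SiLipids 4). Transcripts without overlap rose in number with fewer libraries by construction, to 460 to 1254 for ergosterol and 897 to 2019 for the extract, and the latter were 413 at 5 TPM. Intervals within 1 numbered 25556 with no minimum. Medians of the diterpene list (0.012 with array weights), laccases (−0.044 with no minimum), germin-like proteins (0.034 with no minimum, 0.087 at 5 TPM, 0.11 with array weights) and subtilisin-like proteases (−0.024 with no minimum) moved by more than the spread between libraries. With a library left out, carotenoid enzymes had −0.006 to 0.14, laccases 0.039 to 0.25 and germin-like proteins 0.093 to 0.19, and the histone median was highest at −0.33. The cause of these shifts was not tested.

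With the replicate number as a block (replicate block), 0 transcripts passed the adjusted *p* and 1265 leaned to the extract. Same-numbered libraries of the 2 treatments did not deviate together (*r* = 0.11, 0.013 and −0.070 across transcripts, which are not independent), so the numbers were not read as pairs. The unknown depth limits all values at low TPM.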
